A study of Mus musculus with 8 samples.

Results

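Aminoacyl-tRNA synthetases are the enzymes that join each amino acid to its transfer RNA. The 36 genes described here were picked by symbol, 20 for the cytosolic enzymes and 16 for the mitochondrial enzymes, whose symbols end in 2, out of 24505 genes in each deposited file. All 36 had at least 1 RPKM (reads scaled to transcript length and to the reads of the library) in at least 2 of the 8 libraries and were among the 13428 genes tested.

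RNA had been sequenced from mouse embryonic stem cells of a line with a conditional allele of Ino80, which encodes the motor ATPase of a chromatin remodeller named INO80. There were 4 groups of 2 libraries. Naive wild-type and naive knockout cells were grown on gelatin in N2B27 medium with PD0325901 (a MEK inhibitor), CHIR99021 (a GSK3 inhibitor) and LIF. Primed wild-type and primed knockout cells were grown on fibronectin in N2B27 medium with FGF-2, Activin A and XAV-939 (a tankyrase inhibitor). To delete the gene, cells received 4-OHT at 100 nM and grew on for a further 2 days. The sources used here do not give whether wild-type cells also received 4-OHT, or whether the line is 1 clone. The series asks what INO80 deletion does to transcripts of naive and primed cells. Knockout was compared with wild type in each state, and the 2 effects were then compared with each other.

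Each synthetase recognises its amino acid and its tRNAs, and the charged tRNAs carry amino acids to the ribosome. Most cells use separate nuclear genes for the enzymes of the cytosol and of the mitochondrion, but Gars and Kars make both forms from 1 gene. When charged tRNAs run short or other stresses act, kinases phosphorylate the initiation factor eIF2, the transcription factor ATF4 is made, and ATF4 raises transcription of amino acid transporters, biosynthetic enzymes and many cytosolic synthetases. A group of cytosolic synthetases also sits in a multisynthetase complex, held together by the scaffold proteins Aimp1, Aimp2 and Eef1e1.

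ATF4 and its partners of the C/EBP family bind composite elements that hold the core TGATGNAA, which also reads TTNCATCA on the other strand. This core was searched on both strands of RefSeq promoter windows of GRCm38.p6, each with 250 bases before and 50 after a transcript start. Of 32851 windows 1304 held it, which is 3.97%, and 1219 of 27025 genes had such a window, or 4.51%. Windows were present for 27 of the 36 members; Cars, Hars, Lars, Nars, Rars, Vars, Wars, Hars2 and Pars2 had no entry. The core was found for 5 of 13 cytosolic members (38.5%) and for 0 of 14 mitochondrial members. All 5 are among the 12 cytosolic enzymes commonly listed as ATF4 targets, of which 8 had a window, and none are among the 5 other cytosolic enzymes with a window. These sites are shown because only cytosolic members' windows held the core; each stretch is 30 bases, 5′ to 3′ on the strand given, with the core in capitals.
Aars, chr8:111033840-111033869, minus strand, core starting at base 10 of the transcript: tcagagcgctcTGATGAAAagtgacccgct
Gars, chr6:55037960-55037989, minus strand, core starting 30 bases before the transcript start: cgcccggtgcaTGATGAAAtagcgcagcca
Iars, chr13:49682126-49682155, minus strand, core starting at base 8 of the transcript: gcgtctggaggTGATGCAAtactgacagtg
Tars, chr15:11399655-11399684, plus strand, core starting 15 bases before the transcript start: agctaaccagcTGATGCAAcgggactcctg
Yars, chr4:129189895-129189924, plus strand, core starting at base 4 of the transcript: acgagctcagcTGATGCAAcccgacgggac
For comparison, the core of Asns (asparagine synthetase, a well-known ATF4 target that makes an amino acid and charges no tRNA) lay 23 bases before its start at chr6:7693214-7693243 on the minus strand.
Asns: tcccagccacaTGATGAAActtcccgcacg
A mitochondrial member, Aars2, gives the contrast. The 100 bases before its start at chr17:45506732-45506831, plus strand, hold no core, and the same stretch of Gars at chr6:55037901-55038000, plus strand, holds it as TTTCATCA.
Aars2: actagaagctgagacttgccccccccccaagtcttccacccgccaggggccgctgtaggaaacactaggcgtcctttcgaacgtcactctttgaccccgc
Gars: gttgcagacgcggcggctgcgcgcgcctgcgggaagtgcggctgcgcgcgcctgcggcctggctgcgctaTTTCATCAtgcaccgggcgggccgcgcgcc
A match describes these letters only, and binding was not measured here.

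Depth is unknown, since the files hold scaled RPKM values that sum to between 341480.3 and 507598 per library. The primed knockout libraries have the lowest sums and the primed wild-type libraries the highest, and the median change of all genes in the primed comparison was -0.53 on the log2(RPKM + 1) scale, against 0.05 in the naive comparison. The files hold 0 spike-in rows, so a shift of all RNA and a shift made by scaling cannot be told apart; nor can fewer cells and less RNA per cell. Values are therefore given as deposited and again after quantile normalization, which sets that shift near 0. The labels do not tell whether libraries of 1 group are separate cultures, and p-values therefore reflect a spread between libraries that may be technical. Ino80 itself stood at 15.9 and 15.1 RPKM in the naive libraries labelled knockout against 17.0 and 14.5 in wild type (log2 change -0.02 ± 0.185, SE), so the naive labels are not borne out by this gene. In the primed state it stood at 9.12 and 8.74 against 15.9 and 20.3 (log2 change -0.93 ± 0.185, and -0.26 after quantile normalization). Pou5f1, the defining marker of pluripotent cells, stood at 560 to 694 RPKM over the 8 libraries, and the naive marker Zfp42 at 214 to 257 RPKM in naive against at most 0.984 RPKM in primed libraries. State markers moved in both directions in primed knockout, where 59.3% of all genes were called lower and 4.16% higher as deposited. Of 6 pluripotent markers 3 were lower, with Nanog at -1.63 and Lin28a at -1.77, and 2 higher. Of 6 primed markers T (3.43), Fst (1.73) and Fgf5 (1.65) were higher and Pou3f1 (-0.93) lower, and of 6 naive markers 4 were lower. After quantile normalization 34.6% of all genes were lower and 39.4% higher. There 2 pluripotent markers were lower and 3 higher, 1 primed marker lower and 5 higher, and 5 naive markers lower and 1 higher. Among markers of other cell types, 2 of 5 endoderm, 2 of 4 neural, 2 of 3 trophoblast and 3 of 5 fibroblast genes passed the filter. In primed knockout both neural and all 3 fibroblast genes tested were called lower and 1 trophoblast gene (Krt8) higher. After quantile normalization both neural genes and 1 of the 3 fibroblast genes were called lower, and 1 endoderm and 1 trophoblast gene higher. The part of these markers in the results was not tested.

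Cytosolic synthetases were abundant and the mitochondrial ones mostly sparse. The median cytosolic level lay between 72.0 RPKM in a primed knockout library and 143 RPKM in a primed wild-type library, while the mitochondrial median lay between 12.0 and 20.7 RPKM in those same libraries. RPKM is per length, so these levels can be set beside each other. The most abundant cytosolic members were Gars in all 4 primed libraries and both naive knockout libraries, and Aars in both naive wild-type libraries. Lars2, which charges the mitochondrial leucine tRNAs, stood apart from its class at 245 to 436 RPKM, whereas no other mitochondrial member passed 57.7 RPKM. Which reads make up its level could not be examined in these files. At the low end Wars2, the mitochondrial tryptophan enzyme, ranged from 0.913 to 4.94 RPKM.

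**Figure D1:**
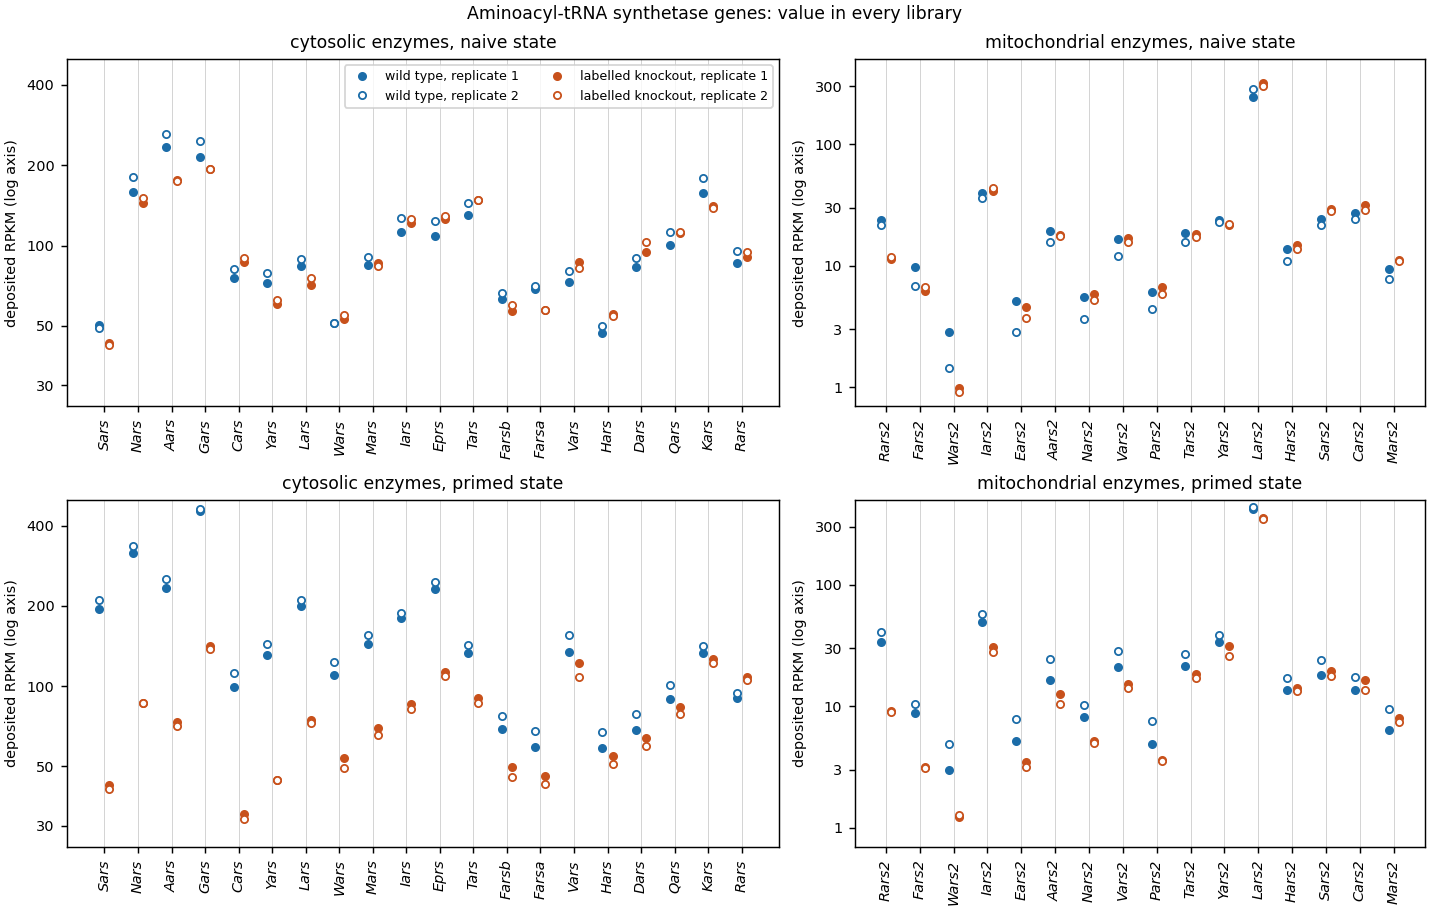
Level of each of the 36 synthetases in each of the 8 libraries, in RPKM on a log axis; every point is 1 library, blue for wild type and orange for libraries labelled knockout. Cytosolic members sit mostly between 31.7 and 462 RPKM, mitochondrial members mostly below 60 RPKM, and Lars2 stands apart at 245 to 436 RPKM.

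In primed cells most cytosolic synthetases were lower in the knockout, and the cytosolic class moved further than the mitochondrial class. In the values as deposited 18 of 20 cytosolic members fell, 1 rose (Rars) and 1 was not called (Kars), with a median log2 change of -1.10. Of the 16 mitochondrial members 12 fell, 0 rose (0 in limma at an unadjusted p under 0.05 as well) and 4 were not called, with a median of -0.67. Calls are at an adjusted p under 0.05 in limma, Benjamini-Hochberg over all genes tested. The background is high: 59.3% of all genes were called lower and 4.16% higher, with the median of -0.53 given above. Relative to that median, the cytosolic class stood 0.57 lower and the mitochondrial class 0.14 lower.

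Quantile normalization kept most cytosolic decreases and left the mitochondrial class near the background. In it 34.6% of all genes were called lower and 39.4% higher in primed knockout (4648 and 5288 genes, against 7958 lower and 559 higher as deposited). The cytosolic class then had 15 members lower and 5 higher with a median of -0.84, and the mitochondrial class 4 lower and 7 higher with a median of 0.01. Median centring gave 9 lower and 5 higher with a median of -0.41 for the cytosolic class. It gave 3 lower and 6 higher with a median of 0.02 for the mitochondrial class. There 3163 of the 13428 genes tested were called lower and 5580 higher, with a median of 0.16. Relative to that median the cytosolic class stood at -0.57 and the mitochondrial class at -0.14, as in the values as deposited. Median centring moves all genes of a library by the same amount, so these relative values could not change and are no further evidence. The cytosolic median was thus below 0 as deposited, in both of these settings and after loess normalization, while the mitochondrial median was below 0 as deposited only and stood -0.02 from that of all genes after quantile normalization. Levels bear on the background too: of 1300 genes within the cytosolic members' range of mean level (54.8 to 255 RPKM) 54.1% were called lower with a median of -0.25, and of 8934 genes in the range of the mitochondrial members without Lars2 (2.08 to 40.9 RPKM) 63.5%, with a median of -0.61. No test between the classes was made.

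Within the cytosolic class the 12 enzymes commonly listed as ATF4 targets account for the largest decreases. All 12 fell in primed knockout, with a median log2 change of -1.53, and all 12 lay below the median of all genes. Every one of these calls held whichever library was left out and after quantile normalization (12 lower, median -1.23), and 9 of 12 held in all 18 alternatives; after median centring 9 were called lower and Tars stood at 0.06. The other 8 cytosolic enzymes had a median of -0.25, with 6 lower and 1 higher as deposited. They had 3 lower and 5 higher after quantile normalization, and 0 lower and 5 higher after median centring. The background as deposited was 59.3% lower and 4.16% higher. Quantile normalization put these shares at 34.6% and 39.4%, and median centring called 3163 of 13428 genes lower and 5580 higher. The median of the other 8 lay 0.29 above that of all genes as deposited, and 0.04 above it after quantile normalization. Only 2 of the 7 calls among these 8 as deposited, those of Farsa and Farsb, held whichever library was left out. The list was drawn up from general knowledge with results of these data known, so it is no independent evidence of its direction.

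Sars, the seryl-tRNA synthetase, had the largest decrease. It stood at 194 and 211 RPKM in primed wild type and at 42.8 and 41.0 in primed knockout, a 4.84-fold ratio of means. Its log2 change was -2.25 ± 0.10 (SE, limma adjusted p = 3.45e-102), and -1.90 after quantile normalization (limma adjusted p = 4.52e-09). As deposited limma set the variance of each gene purely by its level, and the p-values of large changes become extremely small, so the quantile values stand beside them. The median residual SD over genes was 0.048 after quantile normalization against 0.179 as deposited. Small changes are therefore called more readily there, and its p-values are not the more cautious ones for them. Both Sars knockout libraries lay far below both wild-type libraries. By any margin, both primed knockout libraries were lower in 19 of the 20 cytosolic members, beside 76.4% of all genes tested. The margin was narrow in some, as in Kars with 126 RPKM in the higher knockout and 133 RPKM in the lower wild-type library. Rars alone had both knockout libraries higher, as did 6.77% of all genes.

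Nars, the asparaginyl enzyme, followed. It fell from 317 and 334 RPKM to 86.5 and 86.4, a log2 change of -1.90 ± 0.08 (limma adjusted p = 1.09e-110 as deposited and 2.03e-08 after quantile normalization, at -1.56). The knockout libraries differed from each other by far less than from wild type. Aars, the alanyl enzyme, whose window holds the core, fell from 233 and 252 RPKM to 73.3 and 71.1 (log2 change -1.73 ± 0.08, -1.43 after quantile normalization). An exon of Aars overlaps Exosc6 on the same strand, so reads of the overlap may have been left out or shared.

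Gars, the glycyl enzyme that serves cytosol and mitochondrion, was the most abundant cytosolic member in primed wild type at 452 and 462 RPKM. In primed knockout it stood at 142 and 138 RPKM, 3.27-fold lower by ratio of means (log2 change -1.70 ± 0.08, -1.40 after quantile normalization). The groups were far apart in both. Cars, the cysteinyl enzyme, fell from 99.5 and 112 RPKM to 33.2 and 31.7 (log2 change -1.67 ± 0.10). Yars, the tyrosyl enzyme, fell from 131 and 144 RPKM to 44.4 and 44.3 (log2 change -1.61 ± 0.10). In these 3 genes the higher knockout library was below the lower wild-type library by more than the spread within either group.

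Lars, the leucyl enzyme and a subunit of the multisynthetase complex, fell from 199 and 211 RPKM to 74.9 and 72.8 (log2 change -1.46 ± 0.09). Wars, the tryptophanyl enzyme, which interferon also induces, fell from 110.2 and 123 RPKM to 53.6 and 49.3 (log2 change -1.16 ± 0.10). Mars, the methionyl enzyme of the complex, fell from 144 and 155 RPKM to 70.0 and 65.4 (log2 change -1.14 ± 0.09). Wild-type and knockout libraries did not overlap in any of them. Exons of Mars overlap Ddit3 on the opposite strand, which stood at 105 and 122 RPKM in primed wild type and 9.16 and 8.35 in primed knockout. The sources used here do not give the strand used in counting, so reads of Mars and Ddit3 cannot be told apart where they overlap.

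Iars, the isoleucyl enzyme of the complex with a core just inside its transcript, fell from 179.6 and 188 RPKM to 86.0 and 82.3 (log2 change -1.12 ± 0.09). Eprs, the only member that carries a pair of activities, for glutamate and proline, fell from 232 and 245 RPKM to 113 and 109.6 (log2 change -1.09 ± 0.09). Tars, the threonyl enzyme, had the smallest decrease of the 12, from 133 and 142 RPKM to 90.4 and 86.4 (log2 change -0.64 ± 0.09). A core in the promoter window therefore went with changes from -0.64 in Tars to -1.73 in Aars, and Sars, with the largest decrease, had a window without it.

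The other cytosolic members sat close to or above the median change of all genes. Farsb and Farsa, the subunits of phenylalanyl-tRNA synthetase, fell by 0.60 and 0.50 on the log2 scale. Farsb went from 69.1 and 77.4 RPKM to 49.9 and 45.7. Farsa went from 59.1 and 68.2 RPKM to 46.1 and 43.0. Their groups did not overlap, and after quantile normalization the decreases were smaller, at -0.21 and -0.11. After median centring Farsb and Farsa stood at 0.09 and 0.19, where the median of all genes was 0.16.

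Vars, the valyl enzyme, went from 135 and 155 RPKM to 122 and 108 (log2 change -0.33, -0.12 after quantile normalization, 0.36 after median centring). Hars, the histidyl enzyme, went from 58.8 and 67.5 RPKM to 54.8 and 51.0 (log2 change -0.25, 0.14 after quantile normalization). Dars, the aspartyl enzyme of the complex, went from 68.3 and 78.6 RPKM to 64.0 and 59.6 (log2 change -0.24, 0.14 after quantile normalization). In each of them the lower wild-type library was near the higher knockout library, and both Hars and Dars changed sign with the scaling.

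Qars, the glutaminyl enzyme of the complex, went from 89.8 and 101 RPKM to 83.3 and 78.9 (log2 change -0.23, 0.07 after quantile normalization). Kars, the lysyl enzyme of the complex that also serves the mitochondrion, stood at 133 and 141 RPKM against 126 and 122 (log2 change -0.14 ± 0.09, limma adjusted p = 0.13; 0.07 after quantile normalization). Rars, the arginyl enzyme of the complex, rose from 90.4 and 94.3 RPKM to 108 and 105 (log2 change 0.21 ± 0.09, limma adjusted p = 0.0443). After quantile normalization its log2 change was 0.46 (limma adjusted p = 8.17e-06). Rars was the only member of either class with both knockout libraries above both wild-type libraries in the primed state. Its call as deposited was lost without 5 of the 8 libraries, namely either knockout library of either state or primed wild-type library 1, while its direction was positive in every alternative run.

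The split between the complex and the free enzymes ran across the ATF4 list. Of the 8 enzymes of the complex 6 fell and Rars rose, with a median log2 change of -0.67. Of the 12 outside it 12 fell, with a median of -1.39. The background as deposited was 59.3% lower and 4.16% higher. Relative to the median of all genes, the complex stood at -0.13 and the 12 outside at -0.85. After quantile normalization the complex had 4 lower and 4 higher with a median of -0.39. The 12 outside then had 11 lower and 1 higher with a median of -1.07. Background shares there were 34.6% lower and 39.4% higher. Relative to the median of all genes, the complex then stood at -0.41 and the 12 outside at -1.10. Lars, Mars, Iars and Eprs were the 4 lower ones of the complex in that setting, and all are on the ATF4 list.

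**Figure D2:**
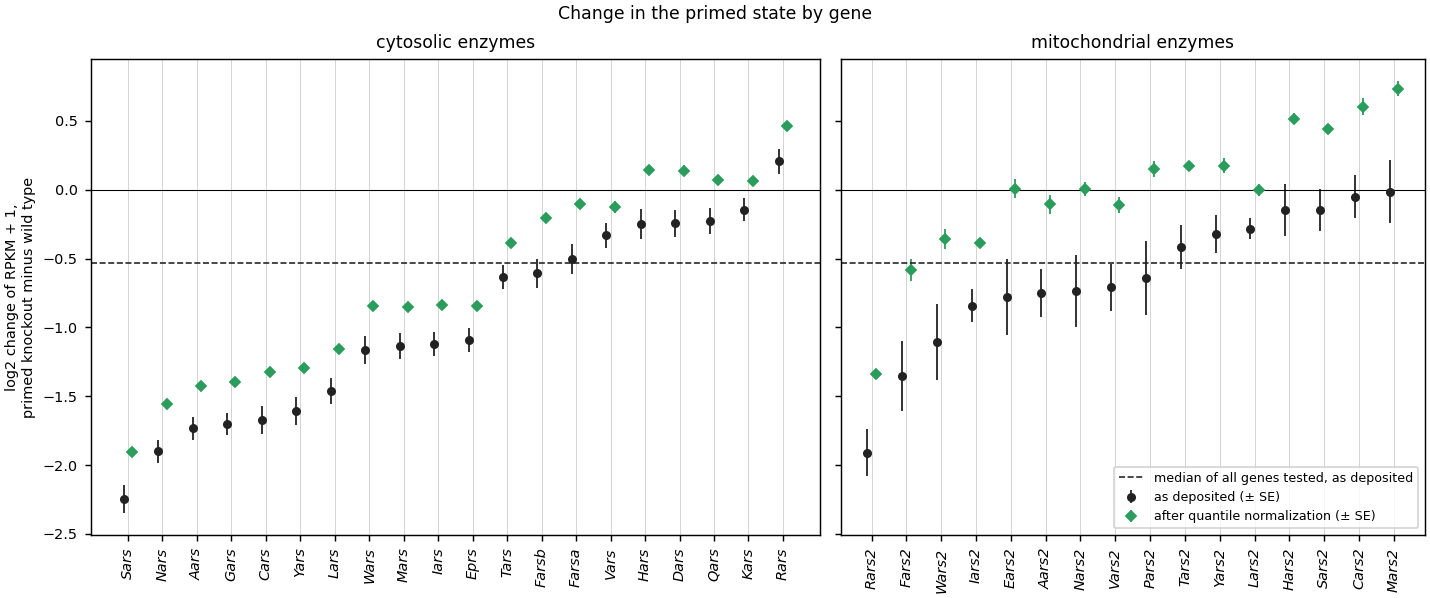
Log2 change of each synthetase in primed knockout against wild type, as deposited with its standard error and after quantile normalization; the solid line marks 0 and the dashed line the median change of all genes as deposited (-0.53). Sars, Nars, Aars and Gars lie lowest among cytosolic members and Rars2 among mitochondrial members, and 9 mitochondrial and 5 cytosolic members lie above 0 after quantile normalization.

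Among the mitochondrial members Rars2 stood apart. Rars2, the mitochondrial arginyl enzyme, fell from 33.5 and 40.7 RPKM to 9.20 and 9.01 in primed knockout, a 4.08-fold ratio of means. The log2 change was -1.91 ± 0.17 (limma adjusted p = 2.98e-28), and -1.34 after quantile normalization (limma adjusted p = 4.53e-08). Both knockout libraries were far below both wild-type libraries, and the call held in every alternative. Its cytosolic counterpart Rars moved the other way.

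Fars2, the mitochondrial phenylalanyl enzyme, fell from 8.81 and 10.4 RPKM to 3.17 and 3.09 (log2 change -1.35 ± 0.26, -0.58 after quantile normalization). Wars2 fell from 2.98 and 4.94 RPKM to 1.24 and 1.28 (log2 change -1.10 ± 0.28, -0.36 after quantile normalization), and the wild-type libraries of this sparse gene differed from each other by more than the knockout mean. Iars2, the mitochondrial isoleucyl enzyme, fell from 49.8 and 57.7 RPKM to 30.9 and 28.1 (log2 change -0.84 ± 0.12, -0.39 after quantile normalization). With Rars2 these were the only 4 mitochondrial members called lower after quantile normalization. Exons of Fars2 and Iars2 overlap genes on the opposite strand (Lyrm4 and Nrn1, and Rab3gap2), as do those of 7 other members, including Farsb, Yars, Cars2, Ears2 and the pair Hars and Hars2.

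A further 8 mitochondrial members fell as deposited but were not lower after quantile normalization at the threshold. Ears2, the glutamyl enzyme, went from 5.23 and 7.93 RPKM to 3.49 and 3.20. Aars2, the alanyl enzyme, went from 16.6 and 24.3 RPKM to 12.7 and 10.5. Nars2, the asparaginyl enzyme, went from 8.12 and 10.3 RPKM to 5.20 and 5.00. In these 3 genes the log2 changes were -0.78, -0.75 and -0.74, and 0.01, -0.11 and 0.01 after quantile normalization.

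Vars2, the valyl enzyme, went from 21.1 and 28.7 RPKM to 15.3 and 14.1 (log2 change -0.71). Pars2, the prolyl enzyme, went from 4.93 and 7.63 RPKM to 3.64 and 3.56 (log2 change -0.64). Tars2, the threonyl enzyme, went from 21.3 and 26.9 RPKM to 18.3 and 17.1 (log2 change -0.41). Groups did not overlap in any of the 3, but after quantile normalization their values were -0.11, 0.15 and 0.17. Yars2, the tyrosyl enzyme, went from 33.8 and 38.4 RPKM to 31.4 and 25.9 (log2 change -0.32, 0.17 after quantile normalization). Lars2 went from 419.6 and 436 RPKM to 352 and 350.0 (log2 change -0.28, -0.001446 after quantile normalization).

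The remaining 4 mitochondrial members had overlapping groups and were not called as deposited. Hars2, the histidyl enzyme, stood at 13.7 and 17.2 RPKM in wild type and 14.1 and 13.5 in knockout. Sars2, the seryl enzyme, stood at 18.1 and 23.9 against 19.6 and 17.7 RPKM. Cars2, the cysteinyl enzyme, stood at 13.6 and 17.5 against 16.3 and 13.6 RPKM. All of them, with Mars2 (the methionyl enzyme, at 6.36 and 9.49 against 8.01 and 7.39 RPKM), were called higher after quantile normalization, with log2 changes of 0.52, 0.44, 0.60 and 0.73. Leaving out primed wild-type library 2, which has the higher mitochondrial levels, moved the class's median from -0.67 to -0.43 and its members called lower from 12 to 7; without primed knockout library 2 the count was also 7, at a median of -0.62.

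For 16 pairs of a cytosolic and a mitochondrial enzyme for the same amino acid, the ratio of their RPKM within a library is free of any factor common to all genes of that library. In primed knockout the ratio was lower without overlap in 11 pairs, higher without overlap in 4 and overlapping in 1, with a median log2 change of -0.30. After quantile normalization, which is not a common factor, 13 were lower, 2 higher and 1 overlapped, with a median of -0.92. In naive cells as deposited 5 pairs were lower, 2 higher and 9 overlapped, with a median of -0.09. Sars over Sars2 (-0.55) and Lars over Lars2 (-0.47) were among these 5, and Rars over Rars2 (0.999) and Wars over Wars2 (1.165) were these 2. No test was made over the pairs, which share libraries and, for Eprs, a gene. How often other pairs of genes separate in this way was not counted. The ratio also keeps any shift that depends on level. As deposited, the median primed change was -0.25 over genes in the cytosolic members' level range. It was -0.61 in the range of the mitochondrial members without Lars2.

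The seryl pair had the largest decrease in its ratio. Sars stood at 10.8 and 8.86 times Sars2 in primed wild type and at 2.18 and 2.31 times in primed knockout, a log2 change of the ratio of -2.12. The cysteinyl ratio Cars over Cars2 went from 7.30 and 6.38 to 2.03 and 2.34, a log2 change of -1.65. The tyrosyl ratio Yars over Yars2 went from 3.88 and 3.74 to 1.41 and 1.71, a log2 change of -1.29. In all 3 the knockout ratios were well under the wild-type ratios, with the cytosolic enzyme remaining the more abundant one. Lars was below Lars2 in every library, at 0.475 and 0.483 times in primed wild type and 0.212 and 0.208 times in primed knockout.

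The arginyl pair went the other way and had the largest change of either sign. Rars stood at 2.70 and 2.32 times Rars2 in primed wild type and at 11.8 and 11.7 times in primed knockout, a log2 change of 2.23 (1.80 after quantile normalization). Farsa over Fars2 rose from 6.71 and 6.57 to 14.5 and 13.9, a log2 change of 1.10. The ratios of Wars to Wars2 and of Vars to Vars2 were also higher, by 0.43 and 0.41, but after quantile normalization they stood at -0.49 and -0.01. The arginyl and phenylalanyl pairs were thus the only 2 with a higher ratio in both settings.

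**Figure D3:**
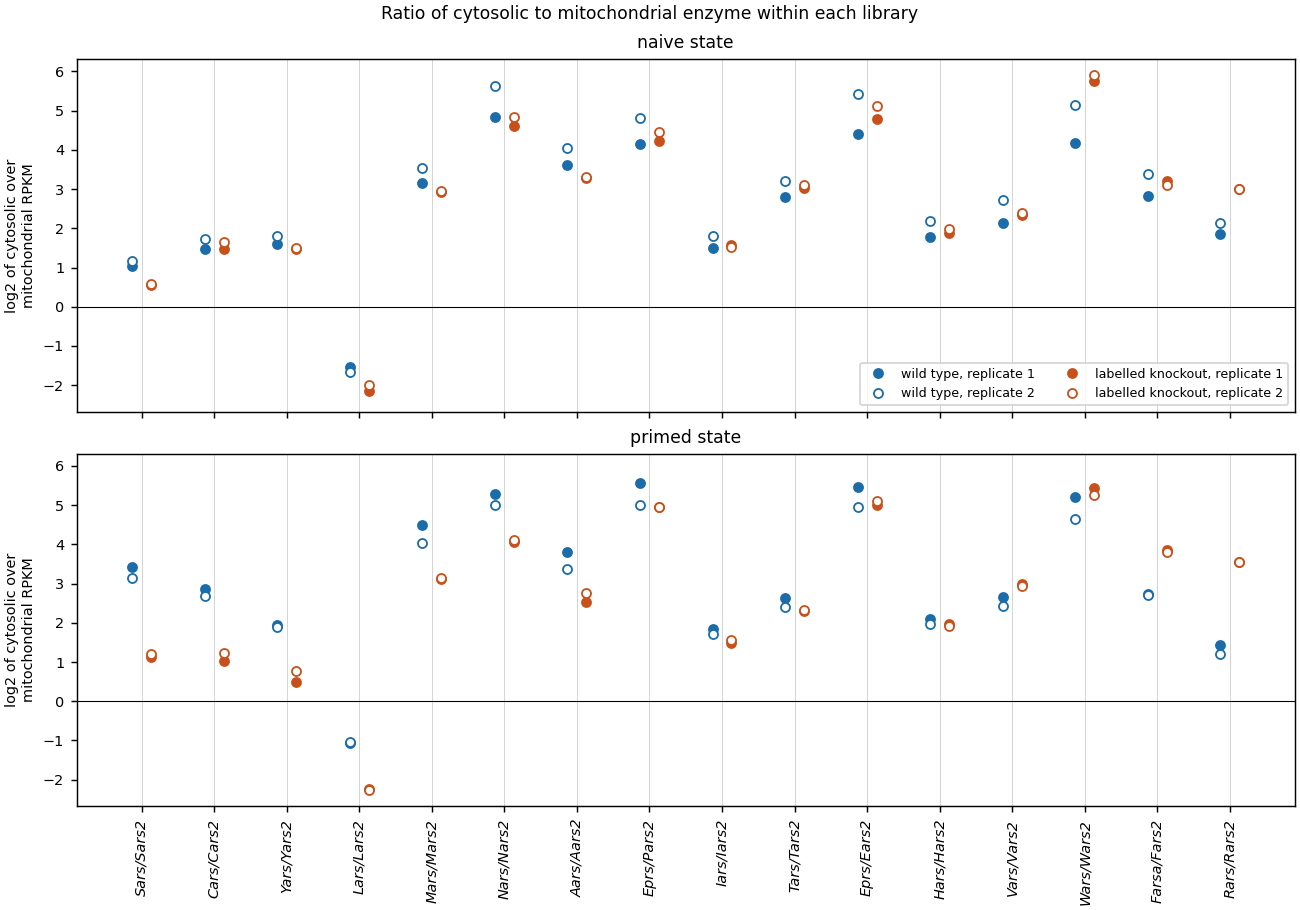
Log2 ratio of the cytosolic over the mitochondrial enzyme for 16 amino acid pairs in each of the 4 primed libraries and the 4 naive libraries; every point is 1 library. Knockout points lie below wild-type points in 11 primed pairs, most widely for Sars over Sars2, and above them in 4 (2 after quantile normalization), most widely for Rars over Rars2.

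In naive cells few members changed. As deposited 4 of 20 cytosolic members were lower (Aars, Gars, Kars and Yars) and 0 higher, with a median log2 change of -0.01, beside 5.85% lower and 6.08% higher among all genes. At an unadjusted p under 0.05 in limma 8 were lower and 0 higher, and after quantile normalization, adjusted, 10 were lower and 7 higher, where 27.5% of all genes were lower and 31.9% higher. Of 16 mitochondrial members 1 was lower (Rars2) and 1 higher (Lars2), with a median of 0.18, and 3 lower and 8 higher after quantile normalization. Both naive knockout libraries lay below both wild-type libraries in 9 cytosolic and 4 mitochondrial members (21.0% of all genes) and above them in 7 and 6 (31.2% of all genes). The libraries labelled naive knockout had Ino80 at the wild-type level, as given above.

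Rars2 was the naive member with the largest change. It fell from 23.8 and 21.6 RPKM to 11.4 and 11.8 (log2 change -0.91 ± 0.17, limma adjusted p = 2.57e-06), and the log2 change was -0.95 after quantile normalization. The groups did not overlap, and this call held in every alternative. Aars fell from 234 and 262 RPKM to 176 and 175 (log2 change -0.49 ± 0.08, limma adjusted p = 1.73e-07); its call held whichever library was left out and was lost in 2 of the 18 alternatives. Rars2 and Aars were thus the steadiest naive calls.

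Yars went from 72.5 and 79.2 RPKM to 60.6 and 62.4 (log2 change -0.30 ± 0.10, limma adjusted p = 0.0287). Kars went from 158 and 179 RPKM to 140.4 and 138 (log2 change -0.27 ± 0.09, limma adjusted p = 0.0189). Gars went from 214 and 246 RPKM to 194 and 193 (log2 change -0.24 ± 0.08, limma adjusted p = 0.0211). Each of these decreases was smaller than the naive decrease of Aars and was no longer called without any 1 of 5 libraries, namely either knockout library of either state or naive wild-type library 2. Lars2 rose from 245 and 284 RPKM to 317 and 302 (log2 change 0.23 ± 0.08, limma adjusted p = 0.024), a call lost without any knockout library or without naive wild-type library 1.

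Several members that fell in primed cells were not called in naive cells as deposited. Sars stood at 50.3 and 49.0 RPKM in naive wild type and 43.0 and 42.3 in naive knockout. Nars stood at 159 and 181 against 144 and 151 RPKM. Lars stood at 84.0 and 89.4 against 71.1 and 75.8 RPKM. In these 3 members the knockout libraries were the lower ones without overlap, with log2 changes of -0.22, -0.20 and -0.24. Farsa (68.5 and 70.6 against 57.3 and 57.3 RPKM) and Farsb (62.9 and 66.2 against 57.0 and 60.0 RPKM) were lower without overlap too, at -0.28 and -0.14.

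Cars was on the other side, at 75.8 and 81.5 RPKM in naive wild type and 86.8 and 89.5 in naive knockout. Eprs stood at 109 and 123 against 126 and 129.5 RPKM. Tars stood at 130.4 and 145 against 148 and 148 RPKM. Their log2 changes were between 0.11 and 0.16, with the knockout libraries higher without overlap. Wars (51.5 and 51.5 against 53.0 and 54.8 RPKM), Vars (72.9 and 80.5 against 87.1 and 82.5 RPKM), Hars (47.0 and 49.8 against 55.5 and 54.3 RPKM) and Dars (83.1 and 89.7 against 94.6 and 103 RPKM) had higher knockout libraries as well.

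Overlapping naive groups were found for Iars (112 and 126 RPKM in wild type, 122 and 126 in knockout) and Mars (84.6 and 90.6, 85.9 and 83.7). The same held for Qars (100.3 and 112, 112 and 112) and Rars (86.1 and 95.3, 90.9 and 94.2). None of these 4 was called as deposited. Mars is the member that overlaps Ddit3, which in naive libraries stood at only 6.52 to 10.5 RPKM.

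Mitochondrial members in naive cells were mostly level or slightly higher in the knockout. Iars2 stood at 39.6 and 36.4 RPKM in wild type and 41.2 and 43.6 in knockout. Sars2 stood at 24.3 and 21.8 against 29.4 and 28.4 RPKM, and Cars2 at 27.1 and 24.4 against 31.5 and 28.5 RPKM. Mars2 stood at 9.41 and 7.86 against 11.2 and 10.9 RPKM, and Hars2 at 13.8 and 10.97 against 14.9 and 13.8 RPKM. These 5 were higher without overlap, with log2 changes from 0.15 to 0.33, and none was called as deposited. Wars2 (2.83 and 1.45 against 0.979 and 0.913 RPKM, log2 change -0.65), Fars2 (9.70 and 6.80 against 6.20 and 6.68 RPKM, -0.30) and Yars2 (24.0 and 22.8 against 21.7 and 22.0 RPKM, -0.10) were lower without overlap and not called.

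The last 6 mitochondrial members had overlapping naive groups. Aars2 stood at 19.2 and 15.8 RPKM in wild type and 18.0 and 17.5 in knockout, and Tars2 at 18.8 and 15.8 against 18.1 and 17.2 RPKM. Vars2 stood at 16.5 and 12.1 against 17.1 and 15.8 RPKM. Among the sparse ones, Ears2 stood at 5.11 and 2.88 against 4.57 and 3.73 RPKM, Nars2 at 5.57 and 3.66 against 5.90 and 5.24, and Pars2 at 6.10 and 4.41 against 6.70 and 5.86. In each the knockout values fell within or close to the span of the wild-type values, which was wide.

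The knockout effect differed between the states for most members as deposited. Its naive side rests on libraries labelled knockout that had Ino80 at the wild-type level. The primed effect was the lower one in 17 of 20 cytosolic and 8 of 16 mitochondrial members, and the higher one in 0 (0 also at an unadjusted p under 0.05), by limma's test of the difference itself, beside 47.4% lower and 2.16% higher among all genes. The median difference was -1.13 in the cytosolic class, -0.65 in the mitochondrial class and -0.59 over all genes. The mitochondrial class was thus near all genes in both share and median. After quantile normalization, where 30.5% of all genes were lower and 33.9% higher, 13 cytosolic members were lower and 3 higher, and 4 mitochondrial members lower and 7 higher. All 12 enzymes on the ATF4 list differed as deposited, whichever library was left out, and after quantile normalization; after median centring 3 of them did. Sars had the largest difference, -2.03 ± 0.15, followed by Cars at -1.83 ± 0.14 and Nars at -1.70 ± 0.12.

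Rars2 and Aars fell in both states, and by more in the primed state as deposited. The difference was -0.998 ± 0.24 for Rars2 (limma adjusted p = 0.000176) and -1.24 ± 0.12 for Aars. Kars, called in naive cells alone, showed a difference of 0.12 ± 0.12 that was not called, and Rars, called in primed cells alone, one of 0.18 ± 0.13 that was not called either. Both differences were called higher in the other scalings: Kars at 0.34, 0.35 and 0.88 and Rars at 0.48, 0.44 and 0.93 after quantile normalization, loess and median centring. Genes that share a value in all libraries of 1 state do not all share one in the other state. Separate scaling of the 2 states was read from this, as the method is not given, so levels are set side by side with no test. In wild type Sars stood at 49.0 to 50.3 RPKM in naive and 194 to 211 RPKM in primed libraries, and in knockout at 42.3 to 43.0 and 41.0 to 42.8 RPKM. Nars, Gars, Lars and Wars also had their highest levels in primed wild type.

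**Figure D4:**
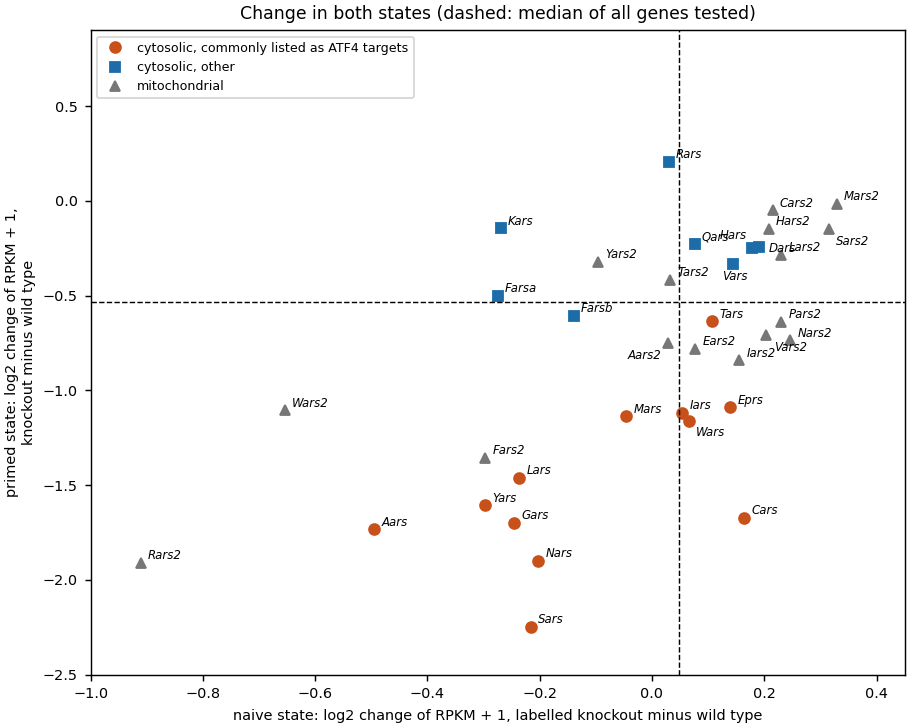
Knockout effect in the primed state against the naive state for the 36 synthetases, each axis a log2 change as deposited; every point is 1 gene, symbols mark mitochondrial members, cytosolic members on the ATF4 list and other cytosolic members, and dashed lines mark the median of all genes. The 12 on the list lie at or below -0.64 on the primed axis while spanning -0.49 to 0.16 on the naive axis, and Rars2 is low on both.

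Most genes that work with the cytosolic enzymes were lower in primed knockout. Of 13 such partners 11 fell as deposited and 0 rose in limma (also 0 at an unadjusted p under 0.05), with a median log2 change of -0.71, beside 59.3% lower and 4.16% higher among all genes. After quantile normalization there were 9 below and 2 above at the threshold (median -0.24), beside 34.6% and 39.4% of all genes. Xpot, which exports tRNA from the nucleus, went from 87.1 and 99.4 RPKM to 32.7 and 30.7 (log2 change -1.52). Dtd1 and Aarsd1, which act in proofreading, fell by 1.35 and 1.17, and Pstk, a kinase of the selenocysteine pathway, fell by 1.06. The scaffolds of the complex differed: Eef1e1 fell by 0.81, whereas Aimp1 (-0.14) and Aimp2 (0.000963) were not called. In naive cells, where 5.85% of all genes were lower, 4 of 13 fell, all named for elongation factor 1, with Eef1g going from 442 and 493 RPKM to 228 and 230.2 (log2 change -1.02), Eef1d at -0.40, Eef1e1 at -0.35 and Eef1b2 at -0.26.

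Partners of the mitochondrial enzymes fell in 9 of 14 cases in the primed state and rose in 0 in limma (also 0 at an unadjusted p under 0.05), with a median log2 change of -0.57, near the 59.3% lower and the median of -0.53 of all genes. After quantile normalization 3 were lower and 6 higher, where 34.6% and 39.4% of all genes were. The largest decreases were in Mto1, which modifies mitochondrial tRNA (-1.34), Gatb, a subunit of the glutaminyl-tRNA amidotransferase (-1.20), the translation factor Gfm2 (-1.08) and Trmu, a tRNA thiouridylase (-0.85). Gatb was also the only one called in naive cells, where it stood at 9.16 and 6.05 RPKM in wild type and 3.63 and 3.65 in knockout (log2 change -0.87).

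The amino acid response, the pathway to which ATF4 belongs, fell further than the synthetases. Of 19 genes listed 17 fell in primed knockout and 1 rose, with a median log2 change of -1.85, beside 59.3% lower and 4.16% higher among all genes. After quantile normalization 16 were lower and 2 higher, beside 34.6% and 39.4%. Trib3 (a pseudokinase that restrains the pathway), Chac1 (which degrades glutathione), Nupr1 (a stress cofactor) and Vldlr (a lipoprotein receptor) had the largest decreases, of -5.36, -5.11, -4.23 and -3.97. Eif2ak1, the kinase that senses haem, was the 1 that rose (log2 change 0.36). Atf4 itself, chosen after its values were seen, stood at 384 and 400.4 RPKM in primed wild type and 129.7 and 122 in primed knockout (log2 change -1.63). In naive cells 5 of the 19 fell and 3 rose, with a median of -0.07, beside 5.85% and 6.08% of all genes. The core TGATGNAA was in the windows of 6 of 18 of these genes, and of 0 of 10 cytosolic and 0 of 12 mitochondrial partners.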

How the data were processed

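RNA of 8 libraries was measured in 4 groups of 2. Per the submitters' processing notes, cutadapt 1.9, STAR 2.5.2b, featureCounts 1.5.1, affy and the build mm9 were used, with no parameters given. The deposited files hold RPKM values per gene, which the authors had scaled further by a method not given in the sources used here: no value is 0, and genes that share a value in 1 library share one in the other libraries of that state, 4 in all. Depth is therefore unknown, and depth-based intervals are not given. The strand counted is not given either.

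From these, log2(RPKM + 1) was computed, and the 13428 genes that reached 1 RPKM in 2 or more libraries entered limma 3.58.1 in R 4.3.3, as 4 group means over 8 libraries with a variance trend and Benjamini-Hochberg adjustment at 0.05. As deposited the prior degrees of freedom were infinite. A fold change on this scale understates the change of low genes. Members and lists were chosen with earlier results of these data known. All 36 members may be named, with values per library for called members, the 6 largest changes per class and state, and members whose call differs between states; of each pathway list up to 4 called genes per direction are named. Alternatives were median centring, quantile and loess normalization, a pseudocount of 0.1, no filter, a filter of 5 RPKM, no variance trend, library weights, a replicate block, each state alone, and leaving out each library. For the difference between states, loess and the block were added after seeing the data, as was the background by level range. Where that leaves 1 library in a group, its spread is taken to equal that of the other groups. On simulated data of 13428 genes with the naive design, 31 of 67 genes changed 1.5-fold, 56 of 67 changed 2-fold and 66 of 66 changed 4-fold were called, and 10 unchanged genes. The simulated noise was independent between libraries and had the spread that limma itself had fitted. It held no shift common to a library and no primed change, so these counts give no error rate for the real libraries. The correlation of the deviations of same-numbered libraries was 0.314 in the naive and -0.036 in the primed state, over 2 pairs each, which leaves undecided whether the numbers pair libraries; no label says that they do. One promoter site is not reported here. Promoter windows come from RefSeq on GRCm38.p6 and exon overlaps from GENCODE, while the deposited values come from mm9. Python 3.11.15 with matplotlib 3.10.9 drew the figures.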

Additional observations from a re-analysis of the deposited data

Results flagged for a closer look

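The knockout effect differed between the primed and the naive state, by limma's test of the difference itself, in 25 members. The naive libraries labelled knockout had Ino80 at the wild-type level, so the naive side of this difference is not borne out by that gene. Each value is the primed minus the naive log2 change as deposited, where the median over all genes was -0.589 and 47.4% of all genes were lower. Among enzymes on the ATF4 list the difference was -2.03 in Sars, -1.83 in Cars, -1.70 in Nars, -1.46 in Gars, -1.31 in Yars, -1.24 in Aars, -1.23 in Wars, -1.23 in Eprs, -1.22 in Lars, -1.17 in Iars, -1.09 in Mars and -0.74 in Tars, and all 12 were also called lower after quantile normalization, at values from -1.67 in Sars to -0.55 in Tars. In the other cytosolic members it was -0.47 in Vars, -0.47 in Farsb, -0.43 in Dars, -0.43 in Hars and -0.30 in Qars. All 5 of these lay above the median of all genes, and of them only Vars was called after quantile normalization, at -0.24.

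Mitochondrial members gave -1.06 in Fars2, -0.998 in Rars2, -0.996 in Iars2, -0.98 in Nars2, -0.91 in Vars2, -0.87 in Pars2, -0.78 in Aars2 and -0.51 in Lars2. These are 8 of 16 members, near the share of all genes called lower, and the class median of -0.65 was near that of all genes. After quantile normalization Rars2 (-0.39), Iars2 (-0.51), Lars2 (-0.27) and Vars2 (-0.24) were called lower, and Fars2 (-0.23), Nars2 (-0.18), Pars2 (-0.02) and Aars2 (-0.08) were not called. Of the 25 differences 16 were called whichever library was left out.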

How the results depend on the processing

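Scaling changed the results most. All genes called numbered 1602 in the naive comparison, 8517 in the primed one and 6658 for the difference as deposited. In the naive comparison quantile normalization, loess and median centring called 7967, 7719 and 4456 genes. They gave 10, 9 and 0 cytosolic members lower and 7 and 7 higher (quantile and loess), 3, 4 and 3 mitochondrial members lower and 8, 6 and 2 higher; median centring put the cytosolic naive median at -0.064. In the primed comparison the 3 settings gave 5, 3 and 5 cytosolic members higher, median centring 9 lower, with cytosolic medians of -0.84, -0.87 and -0.41. They gave 4, 5 and 3 mitochondrial members lower and 7, 6 and 6 higher, with medians of 0.007, 0.016 and 0.021. For the difference the cytosolic counts higher were 3, 3 and 3 with medians of -0.83, -0.87 and -0.38, median centring leaving 3 lower; mitochondrial members were 4, 4 and 1 lower and 7, 6 and 5 higher, with medians of -0.024, -0.001 and 0.105. Quantile normalization turned the primed log2 change from negative to positive, to the value given, in Dars 0.14, Hars 0.14, Kars 0.067, Qars 0.070, Cars2 0.60, Ears2 0.007, Hars2 0.52, Mars2 0.73, Nars2 0.007, Pars2 0.15, Sars2 0.44, Tars2 0.17 and Yars2 0.17, and the difference between states in Farsa 0.19, Cars2 0.44, Hars2 0.38, Mars2 0.47, Sars2 0.18, Tars2 0.20, Wars2 0.38 and Yars2 0.31. Loess normalization turned the primed log2 change from negative to positive, to the value given, in Dars 0.060, Hars 0.083, Kars 0.091, Qars 0.039, Cars2 0.56, Ears2 0.010, Hars2 0.48, Mars2 0.72, Nars2 0.023, Pars2 0.15, Sars2 0.42, Tars2 0.14 and Yars2 0.14, and the difference between states in Farsa 0.15, Cars2 0.41, Hars2 0.35, Mars2 0.48, Sars2 0.17, Tars2 0.18 and Yars2 0.30. Median centring turned the primed log2 change from negative to positive, to the value given, in Dars 0.45, Farsa 0.19, Farsb 0.090, Hars 0.45, Kars 0.55, Qars 0.47, Tars 0.059, Vars 0.36, Cars2 0.64, Hars2 0.55, Lars2 0.41, Mars2 0.68, Pars2 0.057, Sars2 0.55, Tars2 0.28 and Yars2 0.37, and the difference between states in Dars 0.32, Farsa 0.52, Farsb 0.28, Hars 0.32, Qars 0.45, Tars 0.009, Vars 0.28, Cars2 0.48, Hars2 0.40, Lars2 0.24, Mars2 0.41, Tars2 0.30 and Yars2 0.52. The cause was not tested. The median of all genes after median centring was itself above 0, at 0.161 in the primed comparison and 0.161 for the difference. Cytosolic members called lower in the naive comparison were 1 with no filter, 0 with no variance trend (where 908 genes were called in all), 1 with library weights and 8 with each state alone (2526 genes called in all, with 3 cytosolic members higher). Lars2, called higher in naive cells, was then not called (0 mitochondrial members higher) with no filter, no variance trend or library weights, and Rars, called higher in primed cells, was not called (0 higher) in these settings or with each state alone.

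No label says that the replicate numbers pair libraries, and 2 pairs a state do not decide it (correlation of deviations 0.314 naive, -0.036 primed). With a replicate block 942 naive genes were called, with 1 cytosolic member lower and 0 mitochondrial members higher, and 0 cytosolic members were higher in the primed comparison. Primed cytosolic members called lower were then 15 and mitochondrial ones 10, and for the difference 13 and 7.

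Leaving out each library in turn gave 552 to 2946 genes called in the naive, 5539 to 9960 in the primed comparison and 3457 to 9269 for the difference. Naive cytosolic members were 1 to 8 lower and 0 to 1 higher with medians of -0.068 to 0.034, and mitochondrial members 1 to 2 lower and 0 to 2 higher with medians of -0.003 to 0.251. Primed cytosolic members were 14 to 19 lower and 0 to 1 higher, with medians of -1.141 to -1.067, and mitochondrial members 7 to 13 lower with medians of -0.900 to -0.427. For the difference cytosolic members were 12 to 18 lower with medians of -1.184 to -1.065, and mitochondrial members 4 to 13 lower with medians of -0.890 to -0.500. The lowest mitochondrial count for the difference, 4, came without naive knockout library 1 or primed knockout library 2, and the lowest naive cytosolic count, 1, without either knockout library of either state or naive wild-type library 2. Depth is unknown, and 2 libraries a group limit what small changes can be called.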
